A study of Rattus norvegicus with 6 samples.

Results

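Potassium channel genes, taken as the genes whose symbol starts with Kcn, were described in the prelimbic cortex (PL) of rats with spared nerve injury (SNI), a model of neuropathic pain in which the tibial and common peroneal branches of the left sciatic nerve are cut and the sural branch is left. Members were chosen by symbol alone, from probe sets that carry this symbol and no other in the platform annotation, and a gene's value is the mean of its probe sets. The rule gave 75 genes on 126 probe sets, of 14217 genes in all, and 44 of the 75 were read by 1 probe set. No probe set with several symbols held a Kcn gene. The SNI group (3 samples) came from male Sprague Dawley rats 14 days after surgery, and the control group (3 samples) from rats of the same strain and sex, also labelled as taken 14 days after surgery. A sham operation that exposes the nerves without cutting them is described, but neither the labels nor the methods say outright that the array controls had it. The contralateral PL, a part of the medial prefrontal cortex, was hybridized to Affymetrix rat genome arrays, 1 array per sample. The tissue was dissected, so it held all the cell types of the cortex and its edges.

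Potassium channels let potassium leave the cell, which sets the resting potential and ends the action potential. Voltage-gated (Kv) channels open on depolarization and shape spikes and firing rate, inward rectifiers (Kir) hold the cell near rest or answer to G proteins, and tandem pore (K2P) channels carry the background leak. Calcium- and sodium-activated channels follow spikes with a hyperpolarization. Accessory subunits form no pore of their own and set where, when and how long a channel opens. In pyramidal neurons of the cortex these channels together decide how strongly an input drives firing.

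The deposited values are on the log2 scale, with the 6-sample median of every probe set subtracted. Differences between samples can be read from them, while abundance and detection cannot, so no gene is compared with another in level. The samples are numbered as in their labels. Whether each sample is a rat of its own is stated neither in the labels nor in the methods, and the p-values therefore measure the spread of these samples only, part of which may be technical. Precision is limited by the small number of arrays. The 95% confidence interval of a Kcn gene reached 0.12 to 0.38 to each side of its log2 difference. Since the tissue is bulk, fewer cells of a type and less RNA per cell cannot be told apart.

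Potassium channel genes differed little between SNI and control samples, and none passed limma's test after Benjamini-Hochberg adjustment over the 14217 genes. No gene of any kind passed it (0%). In what follows a gene is said to pass when its unadjusted p was under 0.05. At an unadjusted p under 0.05, 9 of the 75 Kcn genes (12%) were lower and 1 (1.33%) was higher in the SNI group. Over all genes, 9.19% were lower and 3.96% higher at that threshold, so the share of lower Kcn genes lay close to that of all genes. The largest difference was that of Kcnma1, at 1.23-fold lower, and no Kcn gene reached a fold of 1.5. The median log2 difference was −0.010 over the 75 genes and −0.011 over all genes. A negative difference was found in 40 of the 75 Kcn genes and in 7785 of all 14217 genes. All 3 SNI samples lay below all 3 control samples for 10 Kcn genes (13.3%, against 13.7% of all genes), and above them for 2 (2.67%, against 6.39% of all genes). In either direction the groups were apart for 20.1% of all genes. For 22 of the 75 genes the 95% confidence interval of the log2 difference lay within 0.2 of 0 on both sides. In the other genes a difference larger than that was not excluded at this number of arrays.

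**Figure D1:**
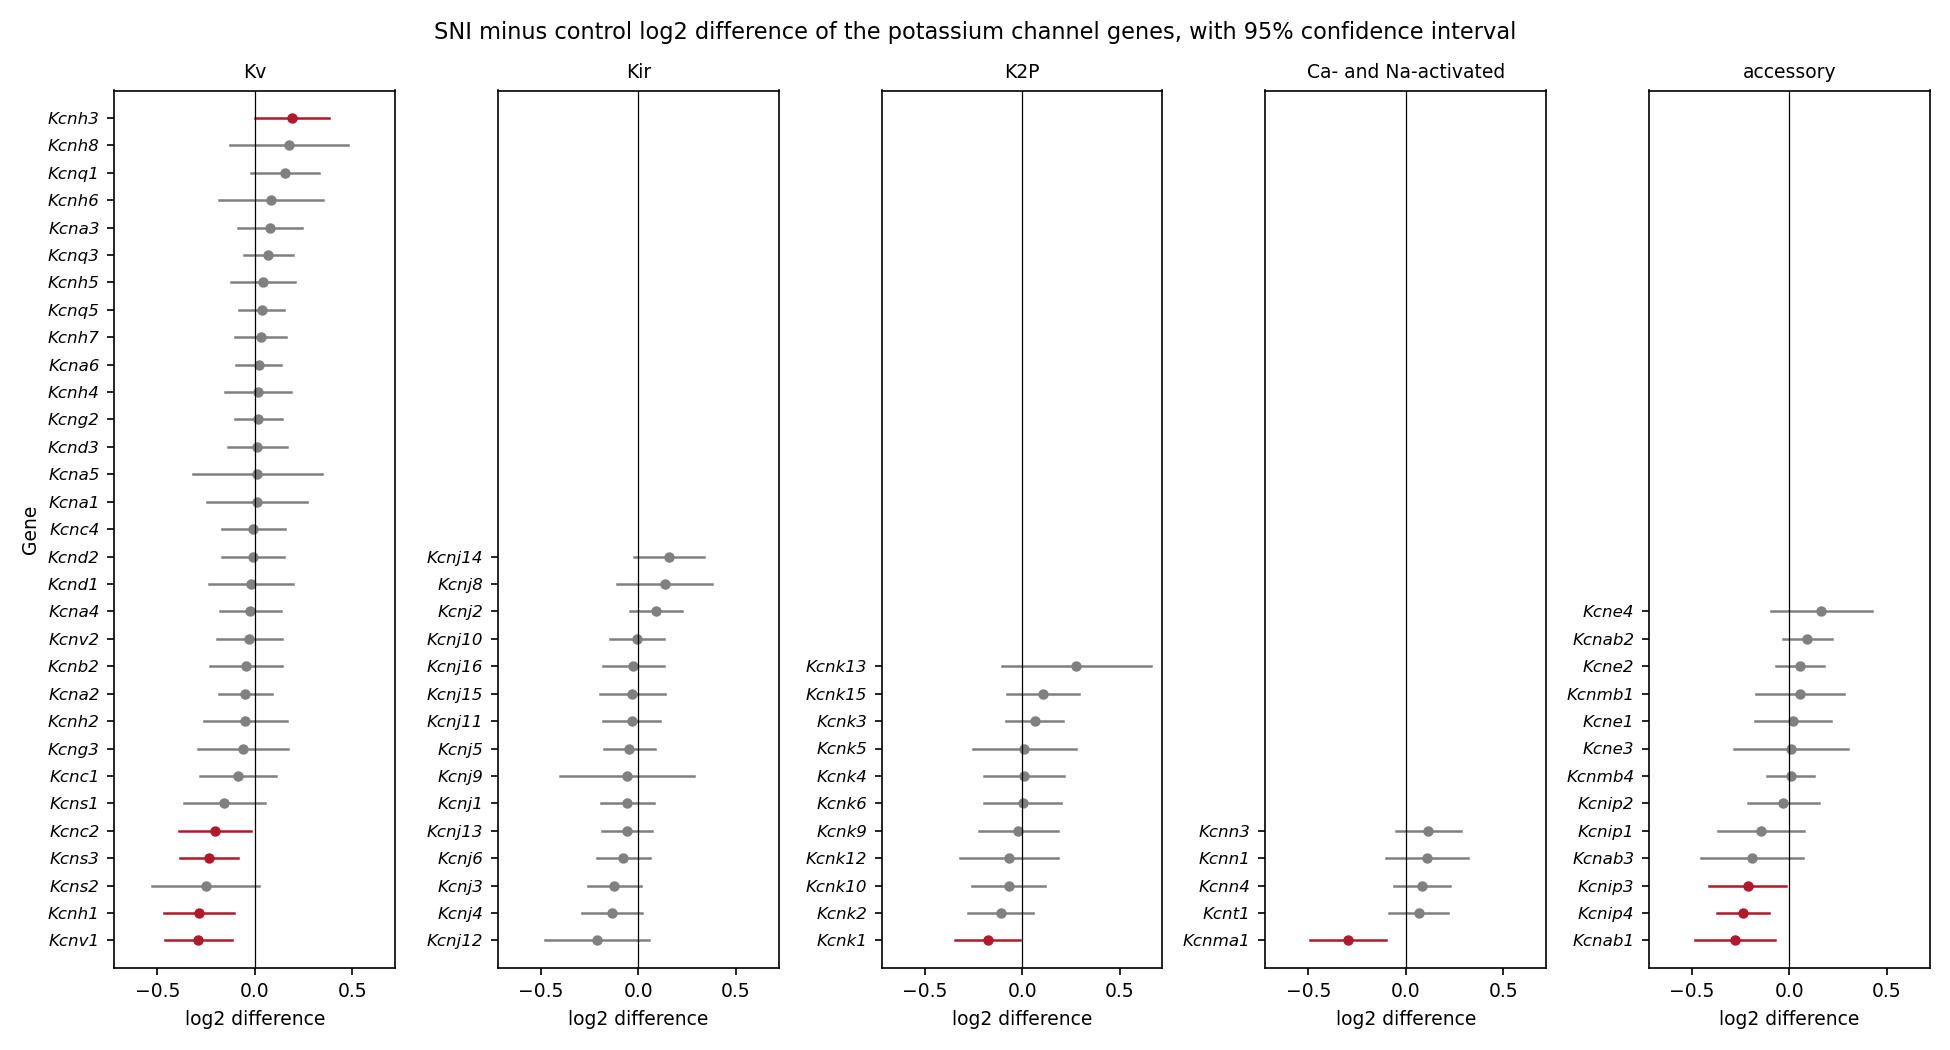
SNI minus control log2 difference (x axis) of the 75 potassium channel genes (y axis), 1 panel for each subfamily. Points are differences and lines their 95% confidence intervals from limma; red marks the 10 genes with an unadjusted p under 0.05, of which 9 are lower and 1, Kcnh3, is higher.

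The array and sample facts that bear on these values are the following. The median SD of a Kcn gene was 0.068 among SNI samples and 0.11 among controls, and the SD was larger in the control group for 46 of the 75 (61.3%). The whole series showed the same, with a median SD over all genes of 0.059 among SNI samples and 0.094 among controls. Of all probe sets tested, 70.1% had the larger SD in the control group. Control transcripts added before hybridization, read by 18 probe sets, averaged 0.054 to 0.19 in the SNI samples and −0.22 to −0.047 in the control samples. Over all genes 3.96% were higher and 9.19% lower at an unadjusted p under 0.05, the threshold of the marker counts that follow. Of the marker lists, microglia had 11 of 17 measured genes higher and 0 lower. Its mean was 0.054 to 0.16 in the SNI samples and −0.14 to −0.090 in the control samples. Neuron markers had 2 higher and 4 lower of 20, and their mean was −0.081 to −0.0034 in the SNI samples and −0.016 to 0.12 in the control samples. Inhibitory neuron markers had 0 higher and 1 lower of 10, with means of −0.15 to −0.0064 in the SNI samples and 0.032 to 0.21 in the control samples. The counts were 2 higher and 2 lower of 11 for pyramidal neurons, 2 and 0 of 15 for astrocytes, 0 and 1 of 11 for myelinating oligodendrocytes, and 3 and 0 of 8 for oligodendrocyte precursors. They were 3 and 0 of 14 for endothelium, 1 and 0 of 12 for pericytes and vascular smooth muscle, and 1 and 0 of 10 for meninges and fibroblasts. The mean for meninges and fibroblasts was −0.28 to 0.32 in the SNI samples, and −0.21, −0.22 and 0.74 in control samples 1, 2 and 3. That for myelinating oligodendrocytes was −0.12 to −0.0034 in the SNI samples, and 0.10, −0.12 and 0.27 in control samples 1, 2 and 3. Choroid plexus and ependyma had 0 and 0 of 7, blood cells 2 and 1 of 8, and the border with striatum 0 and 3 of 9. The part of these shifts in the values of the channel genes was not tested, and because of the centring no marker could be read as absent.

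Kv channel genes were 31 of the members, with a median log2 difference of −0.0069. At an unadjusted p under 0.05, 4 were lower (12.9%, against 9.19% of all genes) and 1 higher (3.23%, against 3.96%). Kcnv1 encodes a subunit that makes no channel alone and changes Kv2 channels when it joins them. It had −0.32, −0.085 and −0.12 in SNI samples 1, 2 and 3, against 0.086, 0.085 and 0.18 in control samples 1, 2 and 3. The groups did not overlap, and SNI sample 1 lay far under the other two. The log2 difference was −0.29 (95% confidence interval −0.46 to −0.12, limma adjusted p = 0.216). Kcns3, another such silent subunit, had −0.15, −0.14 and −0.041 in the SNI samples, against 0.13, 0.041 and 0.21 in the control samples. Control sample 2 lay nearest to the SNI samples. The difference was −0.23 (95% confidence interval −0.38 to −0.087, adjusted p = 0.224). Of the 7 silent subunit genes of the letters g, s and v, 6 had a negative difference, and 2 of them passed an unadjusted p of 0.05. Over all genes 7785 of 14217 had a negative difference. Kcns2 was at −0.25 with overlapping groups, Kcns1 at −0.16, and the highest of the 7 was at 0.017. Their partner Kcnb2 was at −0.044.

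Kcnh1 encodes a channel of the ether-a-go-go (EAG) family, which is found at axon terminals. It had −0.12, −0.036 and −0.11 in the SNI samples, against 0.30, 0.036 and 0.25 in the control samples. Control samples 1 and 3 were high, and control sample 2 lay just above the highest SNI sample. The log2 difference was −0.28 (95% confidence interval −0.46 to −0.10, limma adjusted p = 0.225). Kcnh3, of the related ELK family of the forebrain, was the only Kcn gene higher at an unadjusted p under 0.05. It had −0.0020, 0.026 and 0.20 in the SNI samples, against −0.12, 0.0020 and −0.23 in the control samples. SNI sample 1 lay under control sample 2, so the groups overlapped. The difference was 0.19 (95% confidence interval 0.0013 to 0.38, adjusted p = 0.377), and it lost an unadjusted p under 0.05 in 4 of the 6 fits that left out 1 sample. Kcnh8 (0.17) and Kcnh7 (0.029) did not pass. Over the 8 Kcnh genes the differences ran from −0.28 to 0.19, and 6 were positive.

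Kcnc2 encodes a fast Kv3 channel, which lets interneurons such as those with parvalbumin fire at high rates. It had −0.17, −0.038 and −0.014 in the SNI samples, against 0.14, −0.0035 and 0.25 in the control samples. SNI sample 3 and control sample 2 lay almost together. The difference was −0.20 (95% confidence interval −0.39 to −0.021, limma adjusted p = 0.335), and it kept an unadjusted p under 0.05 in 2 of the 6 fits that left out 1 sample. Beside it, the inhibitory neuron markers were lower in mean, as given above, and their part in this value was not tested. The other Kv3 genes, Kcnc1 (−0.084) and Kcnc4 (−0.0069), did not pass. Of the Kv1 genes, which hold the axonal potassium current, none of 6 passed, and their differences lay between −0.049 (Kcna2) and 0.079, with Kcna1 at 0.012. Kcna1 varied between −0.30 and 0.13 in the control samples, and its sign turned with quantile normalization repeated. Of the Kv7 genes, which carry the M current that muscarinic receptors close, Kcnq1 was at 0.16, Kcnq3 at 0.069 and Kcnq5 at 0.036, and none passed.

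The promoters are printed for 3 of the 8 genes that passed an unadjusted p of 0.05 without overlap of the groups, as examples of windows with many, few and no GC boxes. Each is the RefSeq window from 250 bases before to 50 after an annotated start, 300 bases in build GRCr8 of the rat genome, 5′ to 3′ on the gene's strand, and capitals mark the GC box, GGGCGG, on either strand (CCGCCC where it lies on the other). Kcnma1 lies at chr15:351675-351974 (+), Kcnh1 at chr13:106252966-106253265 (+) and Kcnab1 at chr2:151614301-151614600 (+). The start in a window is 1 transcript start of the gene and not its outermost one: that of Kcnab1 lies far inside the gene, which RefSeq places at chr2:151446975-151913636, and the other two lie closer to the outer end of theirs.
Kcnma1: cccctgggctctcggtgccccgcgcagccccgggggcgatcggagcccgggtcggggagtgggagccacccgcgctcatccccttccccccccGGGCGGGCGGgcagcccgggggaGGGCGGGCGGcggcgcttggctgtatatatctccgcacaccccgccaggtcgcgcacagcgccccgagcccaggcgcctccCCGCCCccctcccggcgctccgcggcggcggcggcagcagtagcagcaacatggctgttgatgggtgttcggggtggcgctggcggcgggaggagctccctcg
Kcnh1: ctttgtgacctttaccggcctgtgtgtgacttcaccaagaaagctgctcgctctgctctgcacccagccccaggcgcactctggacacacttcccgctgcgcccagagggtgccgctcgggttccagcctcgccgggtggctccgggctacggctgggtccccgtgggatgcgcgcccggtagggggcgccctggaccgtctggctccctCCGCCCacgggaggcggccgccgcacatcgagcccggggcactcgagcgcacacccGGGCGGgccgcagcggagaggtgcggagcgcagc
Kcnab1: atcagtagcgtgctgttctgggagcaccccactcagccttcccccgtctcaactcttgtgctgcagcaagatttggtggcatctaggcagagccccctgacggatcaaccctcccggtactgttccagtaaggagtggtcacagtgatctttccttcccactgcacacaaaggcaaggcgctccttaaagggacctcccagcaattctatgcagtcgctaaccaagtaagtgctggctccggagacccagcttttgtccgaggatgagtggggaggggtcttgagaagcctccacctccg
The window of Kcnma1 held 5 GC boxes, some of them overlapping, and 78.3% G and C. That of Kcnh1 held 2 and 72.7%, and that of Kcnab1 held 0 and 56.7%. A GC box was present in 33 of 58 windows of 52 Kcn genes (56.9%), against 33.1% of the 33469 windows of all genes. The TATA box, TATAAA on either strand, was in 2 of the 58 (3.45%), against 14.2% of all windows. The cAMP response element TGACGTCA was in 0 of the 58, against 1.83% of all. The E-box CACGTG was in 5.17%, against 6.42% of all, and CCAAT on either strand in 31%, against 37.5% of all. None of these motifs contains another. A match is a string of letters and was not tested as a binding site.

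Kv4 channels carry the fast A-type current of dendrites. Among their genes only partners, and not all of them, had an unadjusted p under 0.05. The contrast of partners and pore genes was not itself tested. The pore genes Kcnd1, Kcnd2 and Kcnd3 were at −0.020, −0.010 and 0.012, and all 3 had overlapping groups. Their 95% confidence intervals were −0.24 to 0.20, −0.17 to 0.15 and −0.14 to 0.16. For Kcnd1 a fall of 0.2 was thus not excluded. The signs of Kcnd2 and Kcnd3 turned with single samples left out. Kcnip4, a calcium-binding KChIP protein that joins Kv4 channels, had −0.085, −0.13 and −0.12 in SNI samples 1, 2 and 3, against 0.20, 0.077 and 0.085 in the control samples. The 3 SNI samples lay close together and apart from the controls. The log2 difference was −0.24 (95% confidence interval −0.37 to −0.10, limma adjusted p = 0.210). No other Kcn gene had a smaller p. Kcnip4 kept an unadjusted p under 0.05 in all 13 alternatives. Kcnip3, also known as DREAM, a KChIP that in addition represses transcription in the nucleus, had −0.30, 0.014 and −0.13 in the SNI samples, against −0.0064, 0.14 and 0.099 in the control samples. SNI sample 2 lay above control sample 1. The difference was −0.21 (95% confidence interval −0.41 to −0.016, adjusted p = 0.341), and it kept an unadjusted p under 0.05 in 2 of the 6 fits that left out 1 sample. Kcnip1 (−0.15) and Kcnip2 (−0.032) did not pass. All 4 genes of the letter i had a negative difference, and 2 of them an unadjusted p under 0.05. Over all genes 9.19% were lower at that threshold, and 7785 of 14217 had a negative difference.

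Both DPP proteins, peptidase-like membrane partners that speed Kv4 channels, were lower at an unadjusted p under 0.05 as well. Dpp10 had −0.12, −0.083 and −0.078 in the SNI samples, against 0.14, 0.16 and 0.078 in the control samples, a difference of −0.22 (SE 0.053, limma adjusted p = 0.206). Dpp6 had −0.072, −0.048 and −0.082 in the SNI samples, against 0.16, 0.087 and 0.075 in the control samples, a difference of −0.18 (SE 0.053, adjusted p = 0.245). For both genes the groups did not overlap. They belong to a list of 38 genes that anchor, modify or join potassium channels without a Kcn symbol, of which 30 were measured. In that list 2 (6.67%) were higher and 4 (13.3%) lower at an unadjusted p under 0.05, and 0 passed adjustment. Over all genes 3.96% were higher and 9.19% lower at that threshold. Akap5, which anchors kinases and a phosphatase at Kv7 channels and synapses, was higher by 0.26 (SE 0.052, adjusted p = 0.179). It had 0.14, 0.10 and 0.18 in the SNI samples, against −0.15, −0.10 and −0.10 in the control samples. Adam22, a receptor of Lgi1 beside Kv1 channels, was higher by 0.15 (SE 0.056). Vapb, an anchor of Kv2 clusters, was at −0.15 (SE 0.062), and Senp2, which takes SUMO off Kv channels, at −0.15 (SE 0.057), both with an unadjusted p under 0.05. The median of the list was −0.036.

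**Figure D2:**
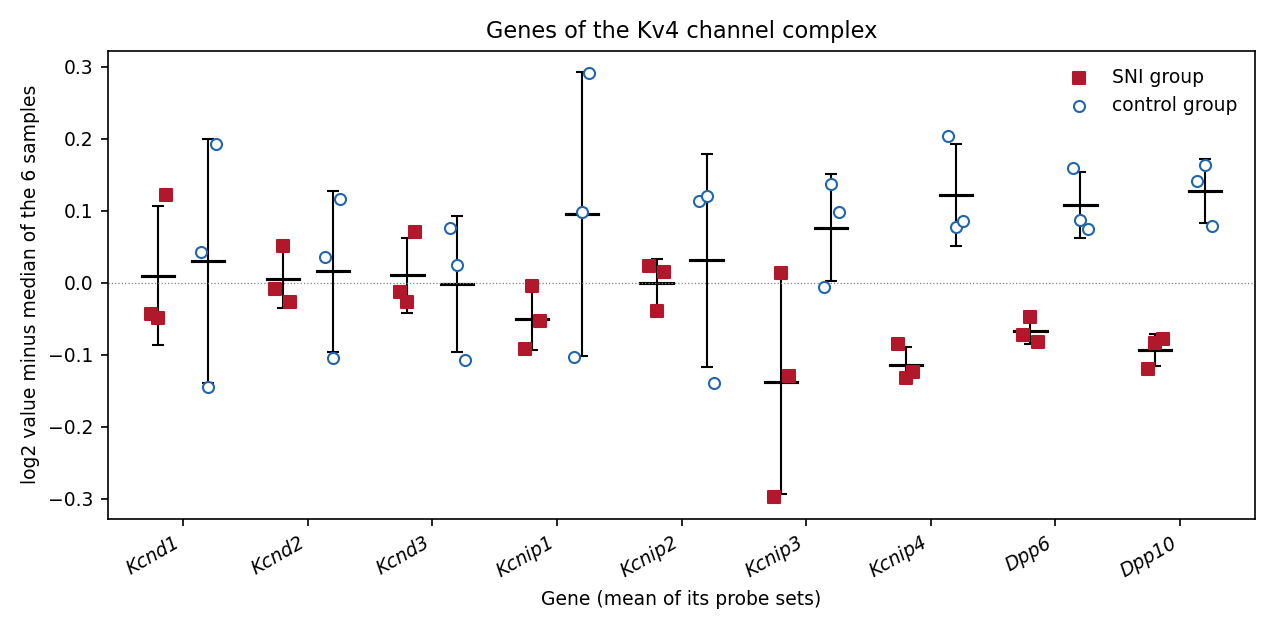
Log2 values of single samples, with the 6-sample median subtracted (y axis), for genes of the Kv4 channel complex (x axis), pore genes at the left and partners at the right. Red squares are the 3 SNI samples and open circles the 3 control samples, with the mean (bar) and SD (error bar); in Kcnip4, Dpp6 and Dpp10 every SNI sample lies under every control sample.

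Other accessory subunits complete a group of 13 genes with a median of 0.0063. At an unadjusted p under 0.05, 3 were lower (23.1%, against 9.19% of all genes) and 0 higher (against 3.96%). Kcnab1 encodes a beta subunit that gives Kv1 channels fast inactivation. It had −0.12, −0.045 and −0.24 in the SNI samples, against 0.12, 0.0019 and 0.30 in the control samples. Control sample 2 lay just above SNI sample 2. The log2 difference was −0.28 (95% confidence interval −0.48 to −0.073, limma adjusted p = 0.265), and without SNI sample 3 it did not have an unadjusted p under 0.05. Kcnab2, the beta subunit that carries Kv1 channels to the axon, was at 0.092 (95% confidence interval −0.033 to 0.22), with the groups apart but no pass. It had −0.014, 0.078 and 0.019 in the SNI samples, against −0.097, −0.022 and −0.073 in the control samples. Kcnmb4, the BK beta subunit of neurons, was at 0.0063 (95% confidence interval −0.12 to 0.13). Kcne4, an inhibitor of Kv channels known from vessels and lymphocytes, was at 0.16 with overlapping groups. All 4 Kcne genes had positive differences, the lowest 0.0088, and none passed.

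Calcium- and sodium-activated channels were 5 genes, with 1 lower (20%, against 9.19% of all genes) and 0 higher (against 3.96%). Kcnma1 encodes the pore of the BK channel, which opens on calcium and voltage together and repolarizes the spike. It had −0.14, −0.12 and −0.11 in SNI samples 1, 2 and 3, against 0.22, −0.015 and 0.31 in the control samples. The SNI samples varied little, control samples 1 and 3 were high, and control sample 2 lay close above the SNI samples. The log2 difference was −0.30 (95% confidence interval −0.49 to −0.10, limma adjusted p = 0.230). With 1 sample left out the limma adjusted p ran from 0.0788 (without control sample 2) to 0.572 (without SNI sample 3). The small-conductance (SK) and intermediate channels, which carry an afterhyperpolarization, the intermediate one being known from microglia, had positive differences in all 3 genes. Kcnn3 was at 0.12 (95% confidence interval −0.051 to 0.28), Kcnn1 at 0.11 and Kcnn4 at 0.084, and none passed. Kcnn2 was not analysed here. Kcnt1, a sodium-activated channel, was at 0.066.

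Inward rectifiers were 15 genes, 12 of them with a negative difference, and 0 passed an unadjusted p of 0.05 in either direction. Their median was −0.046, against −0.011 over all genes, of which 7785 of 14217 had a negative difference. The Kir3 genes, which open on G proteins after opioid, GABA and serotonin receptors, were all 4 negative, with Kcnj3 at −0.12, Kcnj6 at −0.078 and Kcnj9 at −0.057. Kcnj9 varied between −0.30 and 0.33 in the control samples. Of the Kir2 genes, which hold the resting potential, Kcnj12 was at −0.21 and Kcnj4 at −0.13, while Kcnj14 was at 0.16. Kcnj14 had every SNI sample above every control sample, with 0.23, 0.0036 and 0.017 in the SNI samples, against −0.0036, −0.065 and −0.15 in the control samples. Kcnj4 had every SNI sample under every control sample. Kcnj8, the Kir6 channel of pericytes, was at 0.13, with control sample 1 far below the rest (−0.38). Kcnj10, the astrocyte channel that clears potassium around neurons, was at −0.0082 (95% confidence interval −0.14 to 0.13).

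K2P channels were 11 genes with a median of 0.0030, 1 lower (9.09%, against 9.19% of all genes) and 0 higher (against 3.96%). Kcnk1, a weak leak channel found in astrocytes and neurons, had −0.18, −0.0094 and −0.019 in the SNI samples, against 0.18, 0.0094 and 0.13 in the control samples. Control sample 2 lay next to SNI samples 2 and 3. The log2 difference was −0.18 (95% confidence interval −0.34 to −0.011, limma adjusted p = 0.348), with an unadjusted p under 0.05 in 2 of the 6 fits that left out 1 sample. Kcnk13, the THIK channel of microglia, had the largest positive difference of all Kcn genes, 0.28, without passing (95% confidence interval −0.10 to 0.66). It had −0.19, 0.25 and 0.32 in the SNI samples, against −0.46, −0.011 and 0.011 in the control samples. Samples 1 of both groups were low. An unadjusted p under 0.05 was reached with the replicate number as a block (limma adjusted p = 0.301), with the hybridization controls as a covariate and without SNI sample 1, and in none of the other 10 alternatives. The microglia markers, higher in mean as given above, moved the same way, and their part in this value was not tested. Kcnk2, which opens on stretch and lipids, was at −0.11, and Kcnk15 at 0.11. The acid-sensitive Kcnk3 (0.065) and Kcnk9 (−0.019) did not pass.

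**Figure D3:**
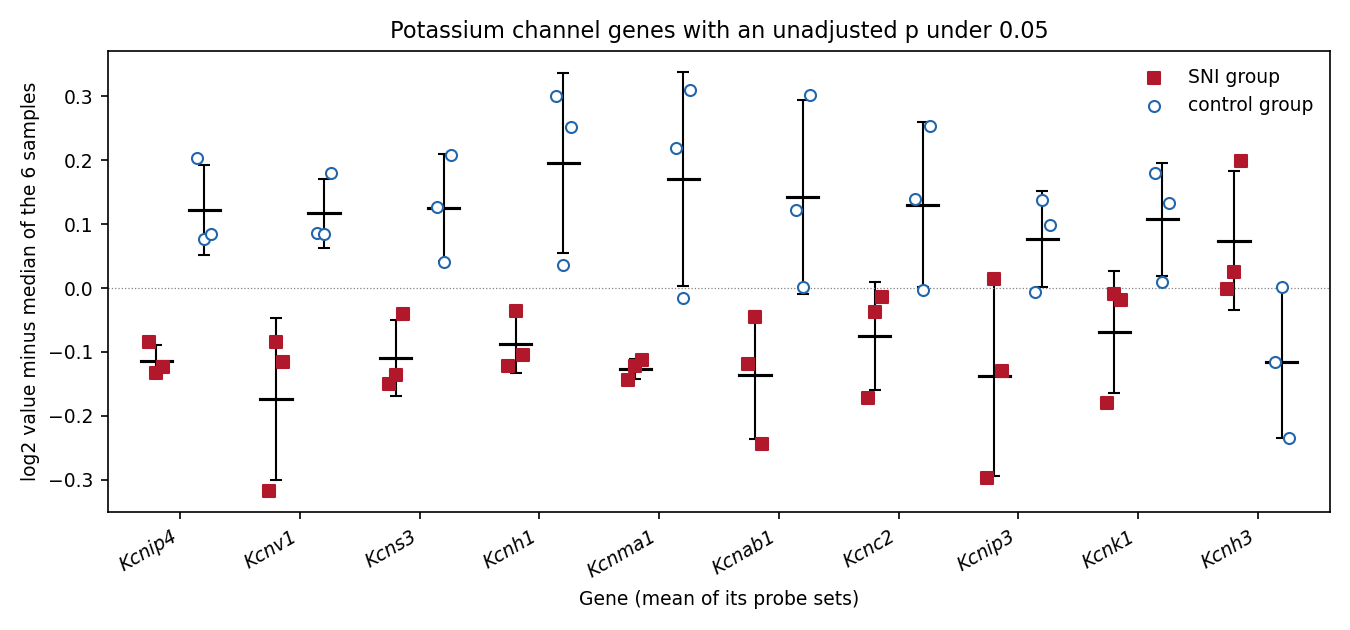
Log2 values of single samples, with the 6-sample median subtracted (y axis), for the 10 potassium channel genes with an unadjusted p under 0.05 (x axis, smallest p at the left). Red squares are the 3 SNI samples and open circles the 3 control samples, with the mean (bar) and SD (error bar); in 8 of the 9 lower genes control sample 2, the middle circle, is the lowest control.

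In the 9 lower genes the same samples were often the lowest of their group. Control sample 2 was the lowest control in 8 of the 9, against 27 of all 75 Kcn genes, and SNI sample 1 was the lowest SNI sample in 7 of the 9, against 35 of the 75. These counts describe genes picked by their difference and carry no test. When the array's mean over the hybridization controls was added as a covariate, only Kcnip4 of the 10 genes had an unadjusted p under 0.05 (log2 difference −0.40, limma adjusted p = 0.485). In that fit 3 Kcn genes were lower and 4 higher at the same threshold, against 4.42% lower and 4.05% higher over all genes. These controls did not overlap between the groups, so in that fit covariate and group are partly the same. Kcnk13 was at 1.11 in it, with an adjusted p = 0.248.

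Probe sets of 1 gene did not always move together. Of the 31 genes with several probe sets, 16 had probe sets of both signs. At the level of probe sets, 13 of 126 (10.3%) were lower and 4 (3.17%) higher at an unadjusted p under 0.05, where 7.47% were lower and 5.60% higher over the 31042 probe sets tested. None passed adjustment, which 0.0322% of all probe sets did. The widest gap was that of Kcnj3, a Kir3 subunit common in neurons. Its first probe set had −0.26, −0.11 and −0.24 in the SNI samples, against 0.35, 0.11 and 0.30 in the control samples, a log2 difference of −0.46 (SE 0.082, limma adjusted p = 0.0948). The second was at −0.20 (SE 0.084), again with the groups apart and SNI lower. The third went the other way, with 0.097, 0.16 and 0.17 in the SNI samples, against −0.20, −0.097 and −0.13 in the control samples, a difference of 0.29 (SE 0.062, adjusted p = 0.130). The groups were apart on all 3 probe sets, so the gene mean of −0.12 stands for none of them.

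In Kcnab2, 1 probe set of 4 was higher by 0.37 (SE 0.077, limma adjusted p = 0.124) and the others lay between −0.13 and 0.085. In Kcnc2, the 6 probe sets ran from −0.58 (SE 0.16, adjusted p = 0.199) to −0.0015, all negative. In Kcnma1 they ran from −0.51 (SE 0.12, adjusted p = 0.167) to −0.11. In both genes only the lowest probe set had an unadjusted p under 0.05. In Kcnip2 the probe sets ran from −0.26 to 0.15 and none passed. Kcnip4 was carried by 1 of its 2 probe sets, at −0.37 (SE 0.064, adjusted p = 0.0935), the smallest adjusted p of any Kcn probe set, and the second was at −0.10 with the groups apart. Kcnab1 was at −0.40 (SE 0.078) and −0.15 (SE 0.12). Kcnj4, which did not pass as a gene, had 1 probe set at −0.28 (SE 0.073) and 1 at 0.013. Kcnq3 had 1 probe set at 0.21 (SE 0.067) with the groups apart and 1 at −0.070 (SE 0.059) with the groups apart in the other direction. Kcnk3 had 1 probe set of 3 at 0.21 (SE 0.066). Which transcript form each probe set reads was not analysed here.

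**Figure D4:**
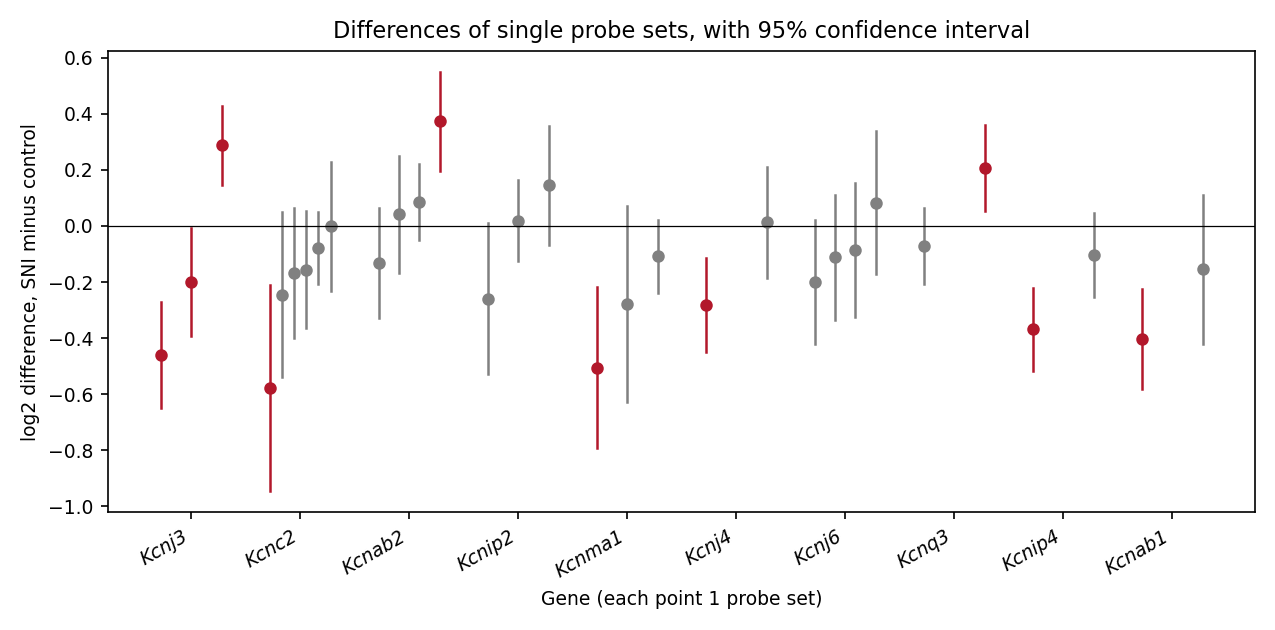
SNI minus control log2 difference (y axis) of single probe sets for the 10 genes whose probe sets lie farthest apart (x axis, widest gap at the left). Points are differences and lines their 95% confidence intervals from limma, red for an unadjusted p under 0.05; the 3 probe sets of Kcnj3 are at −0.46, −0.20 and 0.29.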

How the data were processed

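The deposited log2 values were made by the authors from Affymetrix GeneChip rat genome arrays with RMA correction, log2 transformation and quantile normalization. Each probe set also has its 6-sample median subtracted (0 within 4.78e-07), a step no source describes. Versions of the authors' software: not given in the sources used here.

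Of 31099 probe sets, 57 array controls were left out. Genes were named from the platform annotation, and gene values are means of the probe sets with that symbol alone. The subfamilies follow the letter after Kcn: accessory for Kcnab, Kcne, Kcnip and Kcnmb, Kir for Kcnj, K2P for Kcnk, calcium- and sodium-activated for Kcnn, Kcnma and Kcnt, and Kv for the rest. All 75 genes matched RefSeq by gene ID. SNI minus control was fitted with limma 3.58.1 (lmFit and eBayes, two-sided, no covariate) in R 4.3.3 over 14217 genes, and over 31042 probe sets, with Benjamini-Hochberg adjustment. The call used for counts is an unadjusted p under 0.05. With 3 samples on each side, exact permutation reaches no p below 0.1. The fit was tested on simulated data.

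Genes named are those with an unadjusted p under 0.05 and groups apart, the extremes of each subfamily, a list of genes with known roles in cortex, the 5 with the widest gap between probe sets, and genes of the list of partners with an unadjusted p under 0.05. Kcns1, Kcns2, Kcnq1, Kcnn4, Kcnc4, Kcnb2, Kcnd1 and the single probe sets beyond the 5 genes were named after their values were seen. The members, the marker lists and the list of partners were chosen with earlier results of these data known. The selectivity filters of the channels were meant to be printed and were not, as no protein sequences were used here. Python 3.11.15 with matplotlib 3.10.9 made the plots.

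Each of these was changed alone: array medians aligned, quantile normalization repeated, robust variance estimates, the methods' t-test, a threshold of 0.01 (unadjusted) or 0.10 (adjusted), the probe set with the largest range for each gene, a block for the replicate number, a covariate for the hybridization controls, and 1 sample left out.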

Additional observations from a re-analysis of the deposited data

Results flagged for a closer look

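The 18 hybridization control probe sets, which no comparison of genes uses, averaged 0.19, 0.054 and 0.097 in SNI samples 1, 2 and 3 (mean 0.11, SD 0.070), against −0.047, −0.20 and −0.22 in control samples 1, 2 and 3 (mean −0.16, SD 0.097). The difference of 0.27 on the log2 scale stands out because these control transcripts are added to every sample alike.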

How the results depend on the processing

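No Kcn gene passed an adjusted p of 0.05 in the 13 alternatives, or an adjusted p of 0.10 with all samples. The number of Kcn genes lower at an unadjusted p under 0.05 was 5 with the methods' t-test, 3 with the hybridization controls as a covariate and 5 at an unadjusted p under 0.01, and the number higher was 0, 4 and 0. Over all genes 8.9% were lower and 3.67% higher with the methods' t-test, and 4.42% and 4.05% with the covariate. With the widest probe set per gene 2 were higher, against 4.23% of all genes. With single samples left out 6 to 11 were lower and 0 to 5 higher, and both highest counts came without control sample 2, where 14.6% of all genes were lower and 8.53% higher (without control sample 1, 11 were lower too). Across the fits with single samples left out, 5.69% to 14.6% of all genes were lower and 2.36% to 8.53% higher. Kcn genes with groups apart then numbered 10 to 18 lower and 4 to 13 higher, since fewer samples overlap less often. Of the Kcn probe sets 6 were lower with the covariate, 2 were higher at an unadjusted p under 0.01, and 11 to 21 were lower and 3 to 9 higher with single samples left out. Under these settings the shares over all genes or probe sets are not given for groups apart, for probe sets or at 0.01. Of the partner genes, 2 were lower with the replicate number as a block, 0 lower and 1 higher with the covariate, 1 lower and 1 higher at an unadjusted p under 0.01, and 2 to 9 lower and 1 to 3 higher with single samples left out. Over all genes, the deviations of same-numbered samples from their group means had correlations of −0.022, −0.0074 and −0.045. Differently numbered samples were not compared in this way, and the labels state no pairing, so whether the numbers pair the samples was not settled. Under that block 9 Kcn genes were lower and 1 higher, against 7.46% and 3.51% of all genes, but not the same genes. Among the 46 genes followed through the alternatives, Kcnk1 and Kcnh3 lost an unadjusted p under 0.05. Kcnk13 gained it (limma adjusted p = 0.301). A lower Kcn gene outside those 46 gained it as well and is not identified here. The median log2 difference of the Kcn genes was 0.089 with the covariate and −0.035 to 0.0012 with single samples left out. The causes were not tested.

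Of 46 named genes, 28 kept their sign in all 13 alternatives. With the covariate the sign turned for Kcnj14 (−0.13), Kcnj4 (0.028), Kcnn3 (−0.070), Kcna1 (−0.18), Kcna2 (0.025), Kcnc1 (0.16), Kcnd2 (0.010), Kcnd3 (−0.12), Kcnj9 (0.56), Kcnk9 (0.13), Kcnip1 (0.24) and Kcnip3 (0.12). With the widest probe set it turned for Kcnd3 (−0.11), Kcnj6 (0.083) and Kcnk3 (−0.015), and with quantile normalization repeated for Kcna1 (−0.0043). With single samples left out it turned for Kcna1 (−0.13 to 0.093), Kcnd2 (−0.071 to 0.040), Kcnd3 (−0.040 to 0.052), Kcnh7 (−0.0054 to 0.050), Kcnj9 (−0.21 to 0.11), Kcnj10 (−0.043 to 0.031), Kcnk9 (−0.095 to 0.069), Kcnmb4 (−0.018 to 0.023) and Kcnip2 (−0.12 to 0.013). Kcnc2 lost an unadjusted p under 0.05 without SNI sample 1 or 2 or control sample 1 or 3, Kcnk1 without SNI sample 1 or 3 or control sample 1 or 3, Kcnip3 without SNI sample 1 or 3 or control sample 2 or 3, and Kcnh3 without SNI sample 2 or 3 or control sample 1 or 3. Kcnab1 lost it without SNI sample 3. The methods' t-test also lost Kcnab1, Kcnc2, Kcnip3, Kcnk1 and Kcnh3, the widest probe set Kcnk1 and Kcnh3, quantile normalization repeated Kcnk1, and the covariate all of the 10 but Kcnip4.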
